A study of Caenorhabditis elegans with 2 samples.

Results

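The heterochronic genes set which larval stage a cell of Caenorhabditis elegans behaves as. The 6 described here, taken by name from the 19973 protein-coding genes of the annotation, are lin-14, lin-28 and hbl-1, which act early in larval life, and lin-41, lin-29 and lin-46, which act later. AMA-1, RNA polymerase II's largest subunit, had been immunoprecipitated from whole first-stage (L1) larvae, and the recovered DNA sequenced, in 2 biological replicates that form 1 group. The animals were strain N2, the wild type, pooled males and females of unknown age, and the labels name no transgene or treatment. Each replicate, and the pool of both, has a list of 30000 regions with the peak caller's signal, and a thresholded consensus list holds 1328 regions. A region was given to a gene when its summit, the point position that the list gives for it, lay between 500 bp upstream of the gene's annotated 5' end and its 3' end.

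In this pathway, proteins of the early stages are replaced by those of later stages through small RNAs. The lin-4 microRNA represses lin-14 and lin-28, microRNAs of the let-7 family repress hbl-1 and lin-41, and LIN-28 in turn blocks the maturation of let-7. When LIN-41 falls, LIN-29 accumulates in the epidermis and turns on the adult programme, while LIN-46 counters HBL-1. Much of this control acts on RNA after it is made, and AMA-1 on the DNA measures none of it.

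The caller's signal has no stated scale, so libraries were compared by rank. Signal ran from 5.091 to 803.4 in the pooled list with a median of 9.564, from 3.113 to 494.8 in replicate 1 with a median of 6.416, and from 2.224 to 333.5 in replicate 2 with a median of 4.532. A gene's percentile is the percent of protein-coding genes whose highest signal was lower, and a gene with no region has a percentile of 0. Most genes had no region in a list, so even the lowest listed region puts a gene above all of these. A region's percentile is its rank within its own list, with 100 as the top. A place with no region is one outside the 30000 listed, not a place shown to lack polymerase. The pooled list is labelled as peaks and background, so a listed region is not by itself a place shown to hold polymerase. A q-value of 0.05 or less was given to 10763 regions of the pool, 13236 of replicate 1 and 12235 of replicate 2. The sequencing depth is unknown, no p-value was computed, and in whole larvae fewer cells of a type and less polymerase per cell cannot be told apart. Of the markers of L1 tissues, 3 of 4 for body wall muscle, 1 of 4 for intestine, 4 of 4 for neurons and 4 of 4 for epidermis had a pooled region. In the same order the counts were 3, 1, 3 and 2 in replicate 1, and replicate 2 had all 4 of each. Of 4 germline markers 1 had a region, in the pool and in replicate 1 but not in replicate 2, and none of 6 yolk protein genes, 2 adult cuticle collagen genes and 4 sperm genes had a region in any list.

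The genes differed widely. In the pooled list 4 of the 6 had a region, lin-14, lin-28, lin-41 and lin-29, where 42.8% of all protein-coding genes did. In the consensus list 1 of the 6 did, lin-28, against 4.68% of all genes. Replicate 1 had a region at 4 of the 6 (42.6% of all genes) and replicate 2 at all 6 (44.8%). The genes lin-14, lin-28, lin-41 and lin-46 had one in each replicate, which 34.7% of all genes did. In the 4 deciles, in the order above, that share was 62.6%, 49.9%, 37.4% and 30.0%. At a q-value of 0.05 or less, a limit chosen after the data were seen, pooled regions remained at lin-14 and lin-28 (24.9% of all genes). The genes hbl-1 and lin-29 had regions in replicate 2 and none in replicate 1, a pattern of 10.1% of all genes, and none of the 6 had the opposite pattern, that of 7.86%.

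**Figure D1:**
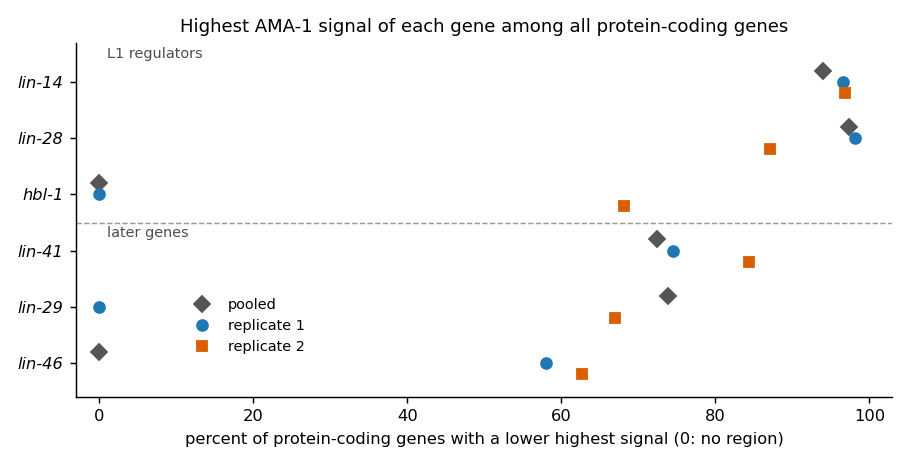
Percent of all protein-coding genes with a lower highest AMA-1 signal (horizontal axis) for each of the 6 genes, in the pooled list (diamonds), replicate 1 (circles) and replicate 2 (squares); a point at 0 means no region. The genes lin-14 and lin-28 sit between 87.1 and 98.1 in the 3 lists, and hbl-1, lin-29 and lin-46 each have a point at 0 in at least 1 list.

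The gene lin-14 (WBGene00003003, X:11465560-11485871 on build ce11, plus strand) encodes a nuclear DNA-binding protein that holds cells to first-stage fates. It had listed regions from its 5' end to its 3' UTR, over a length of 20312 bp. The pooled list had 27 regions in it, of which 17 had a q-value of 0.05 or less, and their listed intervals covered 42.9% of the gene and its upstream window (31.9% in replicate 1 and 46.7% in replicate 2). The longest stretch between summits was 1447 bp in the pool, 3723 bp in replicate 1 and 1402 bp in replicate 2. Replicate 1 had 20 regions and replicate 2 had 29. Of all protein-coding genes, 21, lin-14 among them, had as many pooled regions or more. By the same count 50 had as many as lin-14 in replicate 1 and 11 in replicate 2. The gene is long, and among the 288 genes of 15 to 25 kb the median count was 4, with quartiles at 1 and 10. In that size range 7 genes had at least as many pooled regions, namely ell-1, hlh-30, jun-1, lin-14, lit-1, ncl-1 and pde-4, while 19 had as many as lin-14 in replicate 1 and 4 in replicate 2.

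**Figure D2:**
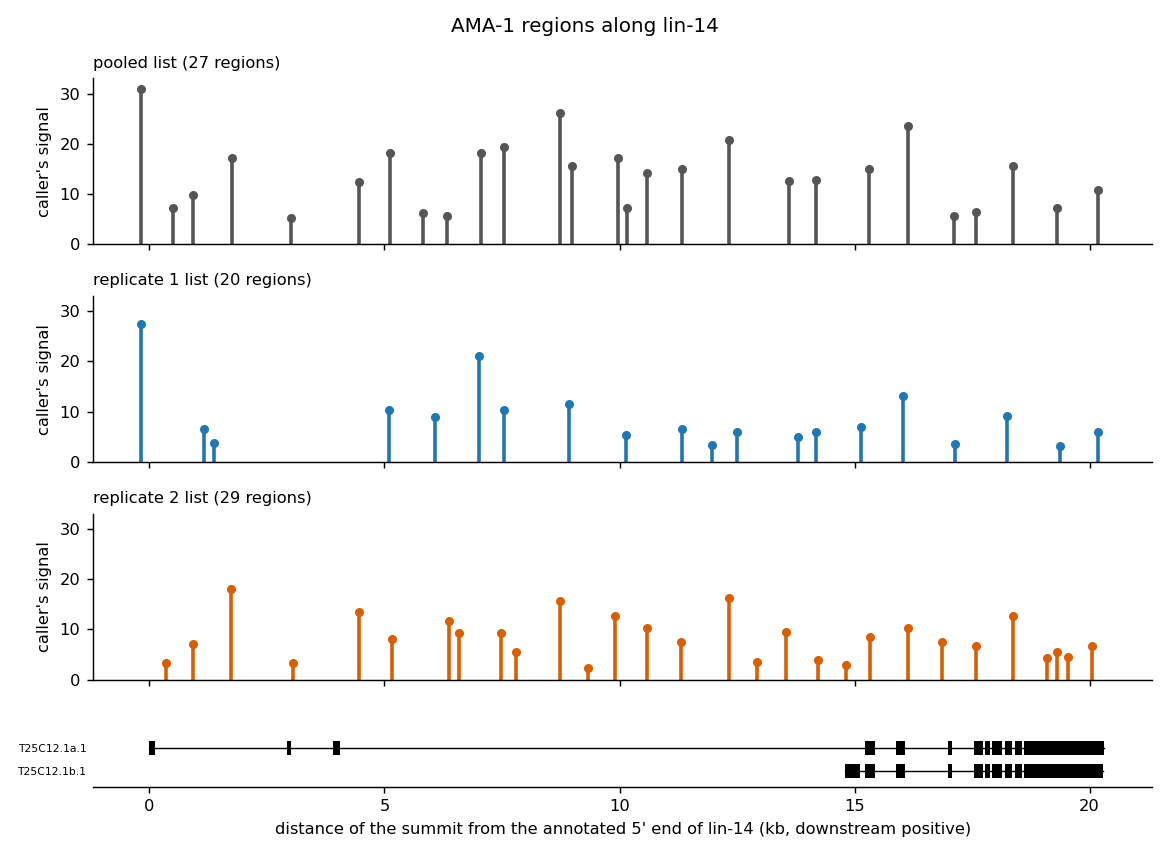
AMA-1 regions along lin-14 in the pooled list, replicate 1 and replicate 2, each stem at a summit with the caller's signal as its height, against distance from the annotated 5' end (kb). The 2 transcripts are drawn under them with exons as boxes. Replicate 1 has its highest region (27.48) just upstream of the 5' end, where replicate 2 has no stem, and replicate 2 has its highest (18.10) in the first intron.

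The highest pooled region of lin-14 lay just upstream of the 5' end. Its signal was 30.85 (X:11465219-11465558), rank 1697 of the list, and its summit stood at -171 bp from the 5' end. Replicate 1 had its own highest region there, 27.48, rank 979, with a summit at -181 bp. Replicate 2 had no region with a summit within 250 bp of that place. Its nearest region, with a signal of 3.280 and a percentile of 27.8, was 362 bp inside the gene. The upstream summit also lies in the window of a non-coding gene, T25C12.8. The 250 bases before this 5' end were 49.6% G and C, more than in 98.8% of protein-coding genes, whose median was 33.2%. The last 300 bases of the region are shown because replicate 1 had its highest region of the gene here and replicate 2 had none. They are from the RefSeq genome of WBcel235, X:11465259-11465558, plus strand, and end next to the annotated 5' end. Capitals mark the letters GAGAG or their reverse complement CTCTC, with overlapping matches run together.
lin-14 upstream: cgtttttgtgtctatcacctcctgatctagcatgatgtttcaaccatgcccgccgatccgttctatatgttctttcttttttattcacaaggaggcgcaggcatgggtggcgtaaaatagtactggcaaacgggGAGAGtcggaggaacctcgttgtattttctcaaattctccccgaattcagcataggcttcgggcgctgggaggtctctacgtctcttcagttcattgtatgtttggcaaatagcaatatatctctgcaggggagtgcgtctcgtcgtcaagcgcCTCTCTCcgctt

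Replicate 2 had its highest region of lin-14 in the first intron, 1743 bp from the 5' end. Its signal was 18.10, rank 928, in a place where the pooled list had 17.20 and replicate 1 had no region within 250 bp. The summit is also in the window of the non-coding gene T25C12.7. Further in, the highest intronic region of the pooled list, 26.12, stood 8726 bp from the 5' end and was matched by 11.49 in replicate 1 and 15.72 in replicate 2. These sequences, 200 bases about each summit and set beside the upstream one, are from the same genome and strand, at X:11467203-11467402 and X:11474186-11474385, and carry the same capitals.
lin-14 replicate 2 region: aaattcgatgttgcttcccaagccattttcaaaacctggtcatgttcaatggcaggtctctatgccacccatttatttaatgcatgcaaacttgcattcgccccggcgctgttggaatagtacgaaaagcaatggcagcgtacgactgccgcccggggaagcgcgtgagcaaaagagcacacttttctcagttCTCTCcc
lin-14 intron region: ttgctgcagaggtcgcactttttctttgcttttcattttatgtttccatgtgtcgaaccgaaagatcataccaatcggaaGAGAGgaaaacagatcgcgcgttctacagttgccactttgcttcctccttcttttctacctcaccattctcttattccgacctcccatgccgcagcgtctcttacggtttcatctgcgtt
The letters GAGAG, on either strand, were found in the 200 bases about 10 of the 27 pooled summits of lin-14 (37.0%), in 31.5% of all pooled regions and in 49.2% of consensus regions. A match describes the letters only.

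Across the body of lin-14, from 500 bp inside the gene to its 3' end, polymerase ranked higher in replicate 2 than in replicate 1. Replicate 1 had 19 regions there with signals from 3.173 to 21.17 and a median of 6.493, which stood at percentile 50.7 of its list. Replicate 2 had 28 regions with signals from 2.240 to 18.10 and a median of 7.786, and the median percentile was 78.7. So the body of the gene sat near the middle of one list and in the upper part of the other. Summits followed each other at a median spacing of 971 bp in replicate 1, 706 bp in replicate 2 and 761.5 bp in the pool. By place, 1 pooled region was upstream, 21 were in introns, 3 in coding exons and 2 in the 3' UTR.

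The same regions were also compared place by place, which is not separate support for the difference in medians. Of the 27 pooled regions, 16 had a region within 250 bp in each replicate, 4 in replicate 1 alone and 7 in replicate 2 alone. Those found in 1 replicate alone do not enter the comparison of percentiles. They include signals of 27.48 and 21.17 in replicate 1, and of 18.10 and 13.48 in replicate 2. Of the 16, the percentile was higher in replicate 2 at 15, or 93.8%, where the same was true of 47.7% of the 15084 regions of the whole pooled list found in each replicate. Neighbouring pooled regions can share a replicate region, so the 16 are not separate observations. The exception was a region 14171 bp from the 5' end, at percentile 45.7 in replicate 1 and 40.7 in replicate 2. Among the others, the region 12338 bp from the 5' end stood at percentile 44.7 in replicate 1 and 95.8 in replicate 2. The one at 9970 bp stood at 39.4 and 92.1. The region at 16131 bp, in an intron shared by the transcripts, ranked nearly alike, at 84.0 and 87.6.

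At lin-14 the 5' end and the body were thus ordered differently in the replicates. For this measure a region was at a 5' end when within 500 bp of that of any transcript of the gene. All other regions of the window counted as body. The highest region at a 5' end differed from the highest in the body by 2.55 percentile points in replicate 1. In replicate 2 the difference was -69.1, so the region at a 5' end was the lower. Replicate 1 minus replicate 2 was 71.7 points, a signed value higher than in 94.3% of 2732 protein-coding genes. These were the genes of at least 2000 bp with a region at a 5' end and in the body in each replicate. Taken in either direction, its size was above that of 88.9% of them. Over those genes the median signed value was 1.27 points, and replicate 1 had the larger difference in 52.2%. This measure was chosen after the replicates of lin-14 had been seen to differ. The sources used here give no age or batch beyond the replicate number, so the part of stage timing or library quality in it was not tested.

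**Figure D3:**
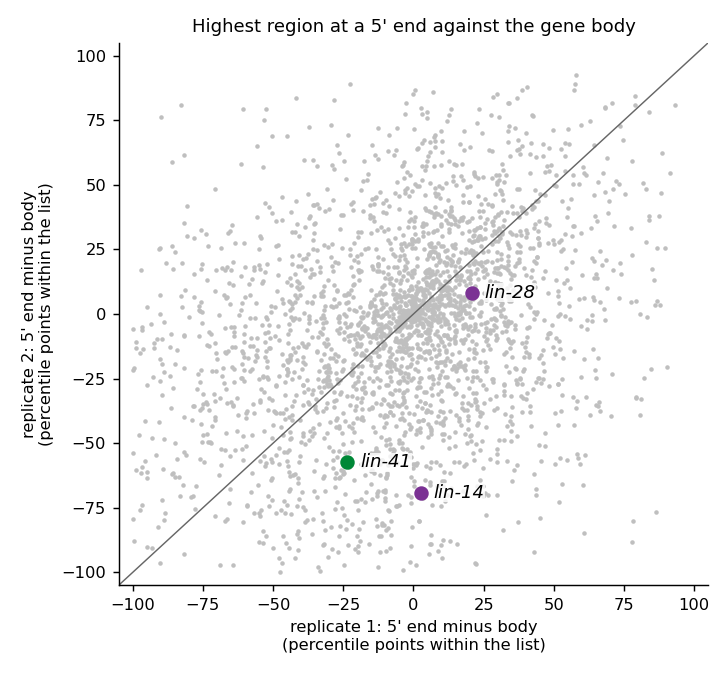
Percentile of the highest region within 500 bp of any transcript's 5' end minus that of the highest region elsewhere in the window. Replicate 1 is horizontal and replicate 2 vertical, for 2732 protein-coding genes (grey) with lin-14, lin-28 and lin-41 marked. The line is equality. The point of lin-14 lies at 2.55 and -69.1, far under the line. That of lin-28 lies at 20.8 and 8.31 and rests on the region at the start of its shorter transcript.

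The second annotated start of lin-14, of transcript b, lies inside the gene at X:11480361. Replicate 2 had a weak region 24 bp inside it (2.941, percentile 19.8), and neither the pool nor replicate 1 had a region within 250 bp of it. Taken by the highest signal alone, lin-14 stood at percentile 94.0 in the pool, 96.6 in replicate 1 and 96.9 in replicate 2, and at 89.9 in the pool among genes of its own length decile. Among the 2731 X-linked protein-coding genes, 37.0% of which had a pooled region, it stood at 96.3. The genes whose 3 percentiles were nearest to those of lin-14 were spsb-1 (96.7, 96.5 and 94.1 in replicate 1, replicate 2 and the pool) and F32B5.6 (96.5, 96.8 and 94.9).

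The 3' UTR of lin-14 is where lin-4 acts, and listed regions reached into it. Replicate 1 had 2 regions in the 3' UTR, with signals of 3.173 and 5.892. Replicate 2 had 4 there, with signals of 4.389, 5.563, 4.502 and 6.742. The mature lin-4 sequence below is from the RefSeq annotation and genome of WBcel235 (II:5902269-5902289, plus strand), with its seed, bases 2 to 8, in capitals.
lin-4 mature: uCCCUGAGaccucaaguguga
The 3' UTR held 3 runs that pair with all bases of that seed, each shown with its paired letters in capitals, at X:11485083-11485106, X:11485131-11485154 and X:11485362-11485385.
lin-14 site 1: ctctcttttaatccaaCTCAGGGa
lin-14 site 2: caggaatttcttctacCTCAGGGa
lin-14 site 3: caaaactcacaaccaaCTCAGGGa
Sites 1 and 2 lay wholly inside a region of replicate 2 (X:11484917-11485266, signal 4.502), and none of the 3 lay wholly inside a region of the pool or of replicate 1. Binding of lin-4 to the RNA is not measured by AMA-1 on the DNA.

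The highest signal among the windows of the pathway's microRNA genes was at lin-4, on chromosome II, and was found in 1 replicate only. The lin-4 gene lies inside the protein-coding gene F59G1.4, on the same strand, which had 8 regions in the pool, 0 in replicate 1 and 11 in replicate 2, so polymerase of the host gene and of lin-4 cannot be told apart here. Its pooled region had a signal of 22.26, with the summit at -163 bp from the annotated start of its hairpin. Replicate 2 had 30.45, rank 222 of its list, with the summit at -129 bp, and a further region of 8.760, and replicate 1 had none. The let-7 gene had pooled regions of 12.68 and 11.34, and 15.96 and 4.128 in replicate 2, the highest of them also in the window of the coding gene C05G5.7, and mir-48, of the same family, had 7.410 in replicate 2 alone. Neither gene had a region in replicate 1. The other 6 microRNA genes of the list, mir-237, mir-84, mir-241, mir-793, mir-794 and mir-795, and lep-5, a long non-coding RNA gene of the pathway, had no region in the pool or either replicate. So of the replicates only replicate 2 had a region at lin-4, let-7 and mir-48, as at hbl-1 and lin-29. The share of all microRNA genes with this pattern is not given here. The let-7 family members with a known seed in common are printed with it in capitals, from the same annotation.
let-7 mature: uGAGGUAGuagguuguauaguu
mir-48 mature: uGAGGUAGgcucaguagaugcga
mir-84 mature: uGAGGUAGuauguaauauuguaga
mir-241 mature: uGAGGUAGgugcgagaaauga
Their genes lie at X:14744234-14744255, V:14364472-14364494, X:16022447-16022470 and V:14366248-14366268 for the mature part, all on the minus strand, and the 4 share the seed while mir-84 and mir-241 had no AMA-1 region.

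The gene hbl-1 (WBGene00001824, X:5822142-5827755, plus strand) encodes a zinc finger transcription factor of the Hunchback family that prevents early onset of later fates. It had no region in the pool or in replicate 1. Replicate 2 had 1 region, of signal 4.098, rank 16978, in the 3' UTR and 4966 bp from the 5' end, which put the gene at percentile 68.1. It was thus the least marked of the 3 early genes, although 58.3% of genes in its length decile had a pooled region. The nearest pooled region upstream, with a signal of 6.888, had its summit 36 bp outside the window, so hbl-1 gained a region with a window of 1000 bp. Of the 31-base words in that window, 100% occurred once in the genome. A total of 82 other genes had percentiles within 1 point of those of hbl-1 in all 3 lists, C28H8.7 and lips-15 nearest.

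The gene lin-29 (WBGene00003015, II:11917642-11935343, minus strand) encodes a zinc finger transcription factor that drives the switch from larval to adult epidermis. It is nearly as long as lin-14, at 17702 bp, and had 1 pooled region to the 27 of lin-14. That region had a signal of 11.32, rank 11679, and lay in the 3' UTR, 17462 bp from the 5' end. Replicate 1 had no region in the gene, and replicate 2 had 6, of signals 2.259 to 3.934, with 5 in introns and the last, 2.410, at the place of the pooled region. All 6 were below the median of that list. The overlapping 3' end of hmg-12, a chromatin protein gene on the other strand, meets that of lin-29, and the highest pooled region of hmg-12 was 8.465, so its part in the 3' signal of lin-29 was not tested. Among genes of 15 to 25 kb, 77 of 288 had no more pooled regions than lin-29, and 47 had none. By percentile lin-29 stood at 73.8 in the pool, 0 in replicate 1 and 67.0 in replicate 2, with ZC13.2 and sams-3 nearest to it, and at 56.7 in the pool among genes of its length decile.

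The gene lin-46 (WBGene00003031, V:12968855-12970730, plus strand) encodes a scaffold protein related to gephyrin that allows the third-stage programme. It had no pooled region. In its length decile 37.6% of genes had a region in replicate 1 and 38.8% in replicate 2. Replicate 1 had 1 region, of signal 3.252, rank 29043, in a coding exon 1479 bp from the 5' end. Replicate 2 had 1, of signal 3.280, rank 21671, with its summit at -76 bp from the 5' end. So the 2 regions of lin-46 were both in the lower part of their lists and lay near opposite ends of the gene, and its count among genes seen in each replicate rests on different places. The nearest pooled summit past the 3' end, 9.376, was 81 bp outside the gene and in the window of pnn-1. The genes nearest to lin-46 in their 3 percentiles were Y40B1B.7 and sql-1.

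The 5' ends of these 3 genes are shown because many genes of this animal have a leader RNA spliced on. Their annotated 5' ends need not be where polymerase starts. Each line holds the 100 bases before the annotated 5' end, from the RefSeq genome of WBcel235. Capitals mark the letters TTNCAG directly before the 5' end, which match the usual end of an intron and were searched on the gene's strand only.
hbl-1 upstream: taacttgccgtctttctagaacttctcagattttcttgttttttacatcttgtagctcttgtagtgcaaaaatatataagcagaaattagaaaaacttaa
lin-29 upstream: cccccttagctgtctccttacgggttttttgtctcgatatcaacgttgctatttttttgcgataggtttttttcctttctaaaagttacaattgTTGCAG
lin-46 upstream: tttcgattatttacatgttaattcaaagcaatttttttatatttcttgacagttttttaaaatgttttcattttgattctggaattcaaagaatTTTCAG
They lie at X:5822042-5822141 on the plus strand, II:11935344-11935443 on the minus strand and V:12968755-12968854 on the plus strand. The letters were present at the 5' ends of lin-29 and lin-46, as at those of the longest transcripts of lin-28 and lin-41, and absent at those of lin-14 and hbl-1. Of all 19973 protein-coding genes, 3791 have them. All distances given here are from the annotated 5' ends.

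In the pool and in replicate 1, lin-28 had the highest signal of the 6 genes, while in replicate 2 the highest was that of lin-14. It encodes an RNA-binding protein with a cold shock domain that keeps early fates and blocks let-7 processing. The gene (WBGene00003014, I:8407630-8410804, minus strand) is 3175 bp long and had 5 pooled regions, 1 of them in the consensus list. That region, I:8409690-8410029, had a signal of 45.28, rank 729. Replicate 1 gave 35.23 there, rank 527 and percentile 98.2 of its list, and replicate 2 gave 8.920, rank 4937 and percentile 83.5. Each replicate thus had its own highest region of lin-28 at that place, and replicate 2 ranked it lower.

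The strong region of lin-28 did not sit at the gene's outermost 5' end. It was 944 bp inside it and 60 bp downstream of the 5' end of the shorter transcript b, in the 5' UTR of that transcript and in the first intron of transcript a. The replicate summits stood 22 bp downstream of that inner start in replicate 1 and at -51 bp, upstream of it, in replicate 2. The letters TTNCAG directly preceded the outer 5' end of lin-28 and not the inner one. Near the outer end the pool had only 6.074, matched by 6.333 in replicate 1 and by no region in replicate 2. The remaining pooled regions had signals of 16.50, 6.835 and 11.20, the last in the 3' UTR. The neighbour F02E9.1, whose 3' end overlaps that of lin-28, had a highest pooled region of 30.04 at its own 5' end, and its part in the 3' region of lin-28 was not tested. As a gene lin-28 stood at percentile 97.4 in the pool, 98.1 in replicate 1 and 87.1 in replicate 2, and at 97.9 in the pool within its length decile. The nearest genes by these 3 values were C47D12.2 and trr-1, with 97.8, 87.4 and 97.0 each in replicate 1, replicate 2 and the pool.

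The gene lin-41 (WBGene00003026, I:9334800-9342496, minus strand) encodes a TRIM-NHL RNA-binding protein that holds back LIN-29 until late larval life. Its pooled regions were weak. They numbered 6, of signals 6.362 to 10.80, none with a q-value of 0.05 or less. Replicate 1 had 7, with a highest signal of 7.892, and replicate 2 had 7, with a highest of 7.879. At that q-value limit replicate 1 had 1 region of the gene and replicate 2 had 3. Matched places in each replicate were found for 4 of the 6 pooled regions, and replicate 2 ranked higher at 2 of these and replicate 1 at 2. The highest pooled region, in a coding exon 6184 bp from the 5' end, had 4.672 in replicate 1 and 5.588 in replicate 2. Near the inner start of the shorter transcripts the pool had 7.374, at -88 bp, with 5.435 in replicate 1 and none within 250 bp in replicate 2. In percentiles lin-41 stood at 72.4 in the pool, 74.5 in replicate 1 and 84.4 in replicate 2, but at 54.4 in the pool within its length decile, the longest genes. The nearest genes were rgef-1 and B0336.7.

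**Figure D4:**
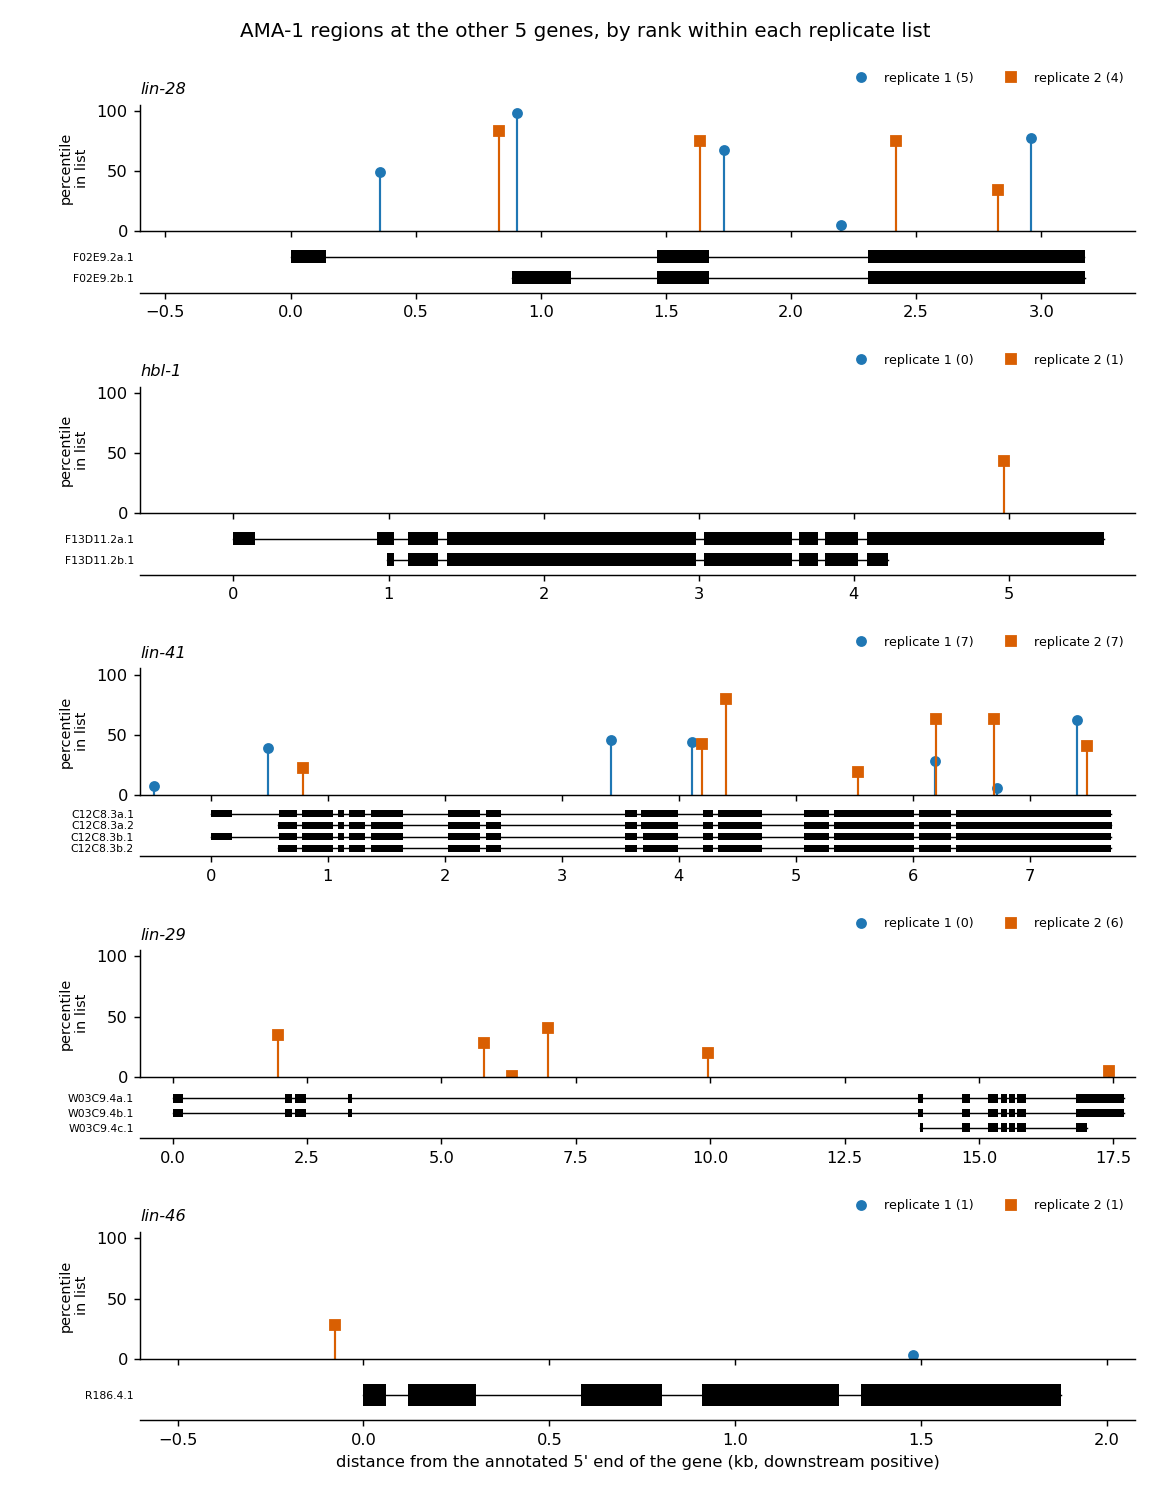
Regions of replicate 1 (circles) and replicate 2 (squares) at lin-28, hbl-1, lin-41, lin-29 and lin-46, as rank percentile within each list (vertical, 0 to 100) against distance from the gene's 5' end (kb), with the annotated transcripts under each panel. At lin-28 the highest regions of the replicates, at percentiles 98.2 and 83.5, flank the start of the shorter transcript; lin-29 has squares only, all under 50.

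Set side by side, lin-14 and lin-28 stood above lin-41, lin-29 and lin-46 in all 3 lists, and hbl-1 did not follow them. The early genes held 32 of the 39 pooled regions and the later ones 7, and 27 of the 32 were in lin-14. The totals were 25 and 8 in replicate 1 and 34 and 14 in replicate 2. The median number per gene was 5 for the early genes and 1 for the later ones in the pool and in replicate 1, but 4 against 6 in replicate 2, so its order turned there. The median percentile was 94.0 for the early genes and 72.4 for the later ones in the pool, a difference of 21.6 points. It was 96.6 against 58.0 in replicate 1 and 87.1 against 67.0 in replicate 2. The 58.0 was that of lin-46, from a region of rank 29043 among 30000. The 67.0 was that of lin-29, whose regions there were all below the list median. The groups overlapped in each list, since hbl-1 stood at 0 in the pool, at 0 in replicate 1 and at 68.1 in replicate 2, in each case under at least 1 later gene. By presence alone the groups were equal, with a pooled region at 2 of 3 early and 2 of 3 later genes. With regions counted per kb of window, lin-28 had 1.36 in the pool, lin-14 1.30, lin-41 0.732 and lin-29 0.0549. With 3 genes on each side that were chosen by name, and genes not being replicates, no test was made of this difference.

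**Figure D5:**
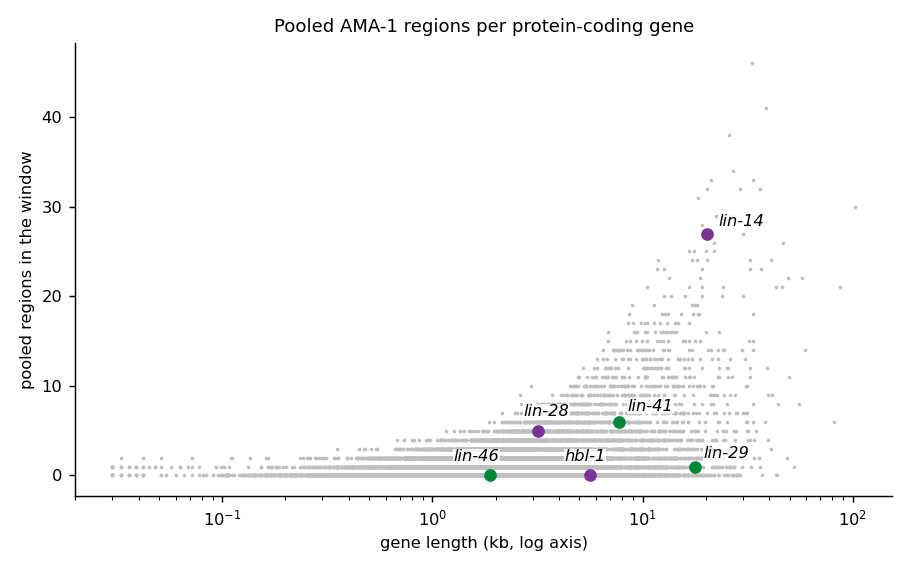
Number of pooled regions per gene (vertical) against gene length (kb, log axis) for all protein-coding genes (grey), with the early genes in purple and the later ones in green. The gene lin-14, with 27 regions, is near the upper edge for its length, while lin-29, of similar length, has 1.

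Of 32 other protein-coding genes of the timing pathway, a list chosen with earlier results of these data known, 29 were found in the annotation. A pooled region was present at 28 of the 29, and a region in each replicate at 24, beside 42.8% and 34.7% of all genes. Those all-gene shares are not matched for length to the 29. In the longest decile they were 70.5% and 62.6%. Their median highest pooled signal was 18.94, and the median over genes with a pooled region was 13.66. The highest was puf-9, which encodes a Pumilio-family RNA-binding protein that acts on hbl-1, with 50.23 in the pool, 35.11 in replicate 1 and 27.05 in replicate 2. It alone of the 29 had a consensus region. Next among those with a region in each replicate, which leaves out lin-42, were nhl-2, a TRIM-NHL gene of the microRNA pathway, with 31.92, 27.81 and 14.67, and lin-66, with 31.30, 13.64 and 17.05. Then came dre-1, an F-box gene whose product helps to remove BLMP-1, with 30.99, 13.65 and 24.35 in the same order, and ain-1, a partner of Argonaute, with 30.44, 20.79 and 10.65.

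The gene lin-42, the Period-like regulator of the moulting rhythm and of microRNA genes, differed between the replicates. It had 21 pooled regions, the highest 33.75, and 26 regions in replicate 2, the highest 27.03 at rank 314, and replicate 1 had none in the gene. A region in replicate 2 and none in replicate 1 was also found at mab-10, a cofactor of LIN-29, nhr-23, a nuclear receptor of the moult, dcr-1, which encodes Dicer, and unc-3, and no gene of the 29 had the opposite pattern. These are 5 of 29 and 0 of 29, beside 10.1% and 7.86% of all genes. The markers of muscle, intestine, neurons and epidermis moved the same way. They had a region in replicate 2 alone at 7 of 16 (myo-3, elt-2, ges-1, vha-6, snt-1, dpy-7 and che-14) and in replicate 1 alone at none. Of the 4 germline markers, which are not among the 16, 1 went the other way, with a region in replicate 1 and none in replicate 2. The part of the tissues in the difference at the timing genes was not tested. The percentile was higher in replicate 2 at 22 of the 29 and in replicate 1 at 7, with none equal. Over all protein-coding genes it was higher in replicate 2 at 26.5% and in replicate 1 at 26.1%, the rest being equal. Because they include the equal genes, the all-gene shares can be set against each other but not directly against 22 of 29. Genes with at least 10 regions in replicate 2 and none in replicate 1, a rule made after lin-42 was seen, numbered 14 of the 310 with at least 10 in replicate 2. They were lin-42, C44H4.4, F26A10.2, F59G1.4, bed-3, mlt-11, nhr-23, pqn-72, ptr-16, ptr-18, rig-6, tsp-14, znf-782 and 1 other, and no gene had at least 10 in replicate 1 and none in replicate 2.

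Of 12 genes regulated later in the pathway, 3 had a pooled region, beside 42.8% of all genes, a share not matched for length to the 12. The collagen gene col-38 had 31.96 in the pool, 16.34 in replicate 1 and 11.07 in replicate 2, each also in the window of rpl-5, a ribosomal protein gene. The LIM homeobox gene lin-11 had 7.112, 4.708 and 3.619, and the collagen gene col-17 had 8.602 in the pool, 15.31 in replicate 2 and no region in replicate 1. The adult collagen gene col-19, a usual marker of LIN-29 activity, had no region in any list, nor did the remaining 8 in the pool or either replicate.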

How the data were processed

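AMA-1 chromatin immunoprecipitation and sequencing was used from 2 biological replicates of whole L1 larvae, labelled with sizes of 150 to 350 and no unit. Only lists on build ce11 were used. Per the lists of files deposited with the samples, the authors derived each list from alignments and a control, and the consensus by an irreproducible discovery rate analysis. The sources used here do not name the caller, thresholds, antibody source, control preparation or depth. Signals of regions are used as deposited. The deposited −log10 q-value served only for alternatives. Summits are the start plus the deposited offset, the other value used.

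Genes came from Ensembl release 115 (WBcel235, the same assembly as ce11) and sequences from RefSeq. Chromosome names and lengths were compared first. Summits within 250 bp were called the same place. Uniqueness of a window was counted over its 31-base words. No test was run, because 1 group was measured. The counting of regions per gene was tested on simulated data. Computations used Python 3.11.15, numpy 2.4.6, pandas 2.3.3 and matplotlib 3.10.9.

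The 6 genes, the pathway and marker lists and the comparisons were chosen with earlier results of these data known. Named are the 6 genes, and from each list at most the 5 highest by pooled signal with a consensus region or a region in each replicate. For each of the 6, the 2 genes with the smallest Euclidean distance over the 3 percentiles are also named. The microRNA genes, lin-42, mab-10, nhr-23, dcr-1, unc-3, col-17, col-19, the tissue markers, the neighbours and genes that share a region and the genes of the counts over long genes and over genes seen in replicate 2 alone were named outside that rule, after their values were seen. Alternatives were other windows, overlap in place of summits, stricter lists, regions of 1 gene, each replicate alone, other rankings and a q-value limit.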

Additional observations from a re-analysis of the deposited data

How the results depend on the processing

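Of 35 alternative values for the counts and the difference between early and later genes, 29 stayed close to the reported value and 6 moved further. Close meant within 1.5 times the reported count, or within 13.1 points of the reported difference. Those 13.1 points are the SD of the 2 values that this difference took in the replicates. The difference changed sign in none of the alternatives. With only regions above the median signal of their list, the pooled regions in the 6 genes fell to 25 and the consensus count to 0. With a q-value limit of 0.05, an alternative added after seeing the data, 2 genes and 19 pooled regions were left. The difference of median percentiles was then 94.0, because lin-41 and lin-29 had no pooled region at that limit. In the replicate lists 3 genes, lin-41 among them, still had a region in each replicate. Leaving out a replicate gave a difference of 20.1 (without replicate 1) to 38.6 (without replicate 2), 4 to 6 genes and 33 to 48 regions. With a window of 1000 bp, or any overlap, hbl-1 and lin-46 gained a pooled region, for 6 genes and 44 regions. Of 30 alternative percentiles of single genes, 17 were unchanged or stayed within the SD of the gene's 2 replicate percentiles, and 13 moved further. The 0 of lin-29 without replicate 2 and the 0 of hbl-1 without replicate 2, against 68.1 without replicate 1, show how far a gene can rest on 1 library. No paired analysis was possible because there was 1 group. Depth is unknown and limits what a place outside the 30000 regions can show.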
